A study of Mus musculus with 12 samples.

Results

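The FGF receptor family of the mouse consists of 5 genes, *Fgfr1*, *Fgfr2*, *Fgfr3*, *Fgfr4* and the receptor-like gene *Fgfrl1*. They were chosen by name, because *Fgfr1* and *Fgfr2* were deleted in the dermal papilla (DP) and the other members could take their place. All 5 were found in both expression tables, which hold 15209 genes at postnatal day 14 (P14) and 15334 genes at P16, and all 5 passed the filter on low values. The DP is the cluster of mesenchymal cells at the base of the hair follicle, and both days lie in anagen, the growth phase, of the first hair cycle. RNA of sorted DP cells was sequenced from 3 control and 3 dMF1/2 mice on each day, which gave 12 libraries with 19302358 to 29860750 counted reads each.

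The dMF1/2 mice were Cor-cre/+, Fgfr1 Flox/Flox, Fgfr2 Flox/Flox. The controls, labelled wild type, were either Cor-cre/+ with 1 floxed and 1 intact copy of each receptor gene, or mice with both floxed copies of each gene and no Cre. Which control genotype each library had is not given in the sources used here. In Cor-cre mice the recombinase gene sits in the *Corin* locus, whose postnatal activity marks DP cells. Cells were collected from whole skin by 2 rounds of sorting for YFP, a reporter that is switched on by Cre and was present in both genotypes. Because YFP needs Cre, a mouse without Cre would give no YFP-positive cells by this design. If the sequenced controls were of the first genotype, Cre could also have deleted the floxed copy of each gene in their sorted cells. Their *Fgfr1* and *Fgfr2* levels would then be those of cells with 1 intact copy of each gene and not of unaltered cells.

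Most FGFs are secreted ligands that bind receptor tyrosine kinases of the cell surface together with heparan sulfate or a Klotho co-receptor. A bound receptor forms a dimer, phosphorylates the docking protein FRS2 and signals through GRB2 and SOS to RAS, RAF, MEK and ERK, and ERK in turn induces ETV transcription factors and the Sprouty, Spred and DUSP genes that dampen the same pathway. Splicing of *Fgfr1*, *Fgfr2* and *Fgfr3* gives IIIb forms, mostly epithelial, and IIIc forms, mostly mesenchymal, which respond to different ligands. *Fgfrl1* encodes a receptor that binds FGF but lacks the tyrosine kinase domain. In the hair follicle the DP sends FGF7 and FGF10 to the epithelium, while the epithelium itself also expresses FGF receptors.

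Reads were 61 bases long and were counted over whole genes, so the resemblance between the members decides whether a read can be given to 1 of them. The stretch of 61 coding bases below is shown for that reason, as it lies in the part that encodes the tyrosine kinase domain, where the members resemble each other closely. It is exonic in each gene, in exon 12 of 18 in *Fgfr1*, *Fgfr3* and *Fgfr4* and in exon 10 of 16 in the *Fgfr2* transcript used. The positions are on GRCm38, the sequences are written 5′ to 3′ on the strand of the gene, and capitals mark the bases that differ from *Fgfr1*.
Fgfr1, chr8:25570174-25570234, plus strand: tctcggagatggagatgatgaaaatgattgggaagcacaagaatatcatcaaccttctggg
Fgfr2, chr7:130180382-130180442, minus strand: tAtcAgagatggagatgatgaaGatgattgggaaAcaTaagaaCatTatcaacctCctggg
Fgfr3, chr5:33733889-33733949, plus strand: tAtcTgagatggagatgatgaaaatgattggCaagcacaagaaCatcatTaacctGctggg
Fgfr4, chr13:55165923-55165983, plus strand: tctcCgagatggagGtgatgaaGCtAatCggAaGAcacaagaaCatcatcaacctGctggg

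In this stretch *Fgfr2* differed from *Fgfr1* at 8 bases, *Fgfr3* at 6 and *Fgfr4* at 11 of 61. No coding window of *Fgfrl1* differed from this *Fgfr1* stretch at fewer than 35 bases. Over all pairs of 61-base windows, the fewest differences from *Fgfr1* were 5 for *Fgfr3*, 6 for *Fgfr2*, 9 for *Fgfr4* and 19 for *Fgfrl1*. The longest run of identical coding bases between any 2 members was 26 bases, shared by *Fgfr1* and *Fgfr3*, and no window of 61 transcript bases of a member occurred in another member. Windows that recur in another gene were on the opposite strand only. They were 1.39% of the *Fgfr1* windows, all in *Gm16159*, and 7.93% of the *Fgfr3* windows, all in *G630022F23Rik*. The libraries were made with a stranded kit, but the strand setting of the counting is not given in the sources used here. The gene model of *Fgfr2* also shares 314 exon bases with *Ctbp2* on the same strand, through a long alternative transcript.

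The genes lie apart in the genome. On GRCm38, *Fgfr1* (ENSMUSG00000031565) spans chr8:25513654-25575714, *Fgfr2* (ENSMUSG00000030849) chr7:130162451-133123350 and *Fgfr4* (ENSMUSG00000005320) chr13:55152640-55168759. *Fgfr3* (ENSMUSG00000054252) at chr5:33721674-33737068 and *Fgfrl1* (ENSMUSG00000008090) at chr5:108692382-108706924 share a chromosome. Which exons the floxed alleles remove is not given in the sources used here. A deletion of some exons leaves the reads of the others in a count over the whole gene, so the count of a floxed gene does not measure how complete its deletion was.

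The sorted cells expressed the markers of the DP. The 3 markers of that list with the highest mean were *Enpp2*, *Wif1* and *Corin*, and none of its 21 genes was listed at 0 in any library. Keratinocyte markers were far lower. Of the 22 genes of their list, 20 were found at P14 and 19 at P16. The sum of those found lay between 25.5 and 80.0 RPM (reads scaled to the size of the library) in the 12 libraries, against 3712 to 15571 for the DP markers. *Epcam*, the gene of an epithelial surface protein, did not exceed 8.30 normalized reads. Dermal sheath and dermal fibroblast markers summed to 963 to 2370.2 and 4950.5 to 6370.4 RPM, and their part in the values below was not tested. The fibroblast sum was above the DP sum in P16 control library 1, at 5073 against 3712 RPM. The fibroblast marker with the highest mean, *Gsn*, was above *Enpp2*, at 49130 against 37308 reads scaled over all 12 libraries.

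The P14 libraries numbered 1 stood apart from the other P14 libraries in both genotypes. Their DP marker sums were 15571 (control) and 14630 (dMF1/2) RPM, against 6603 to 8898 in the other P14 libraries, and their keratinocyte sums were 80.0 and 72.5, against 29.9 to 40.2. Their normalized reads summed to 17982773 and 19311228, against 24697821 to 25188185 in the other P14 libraries, so that an equal number of normalized reads gives a higher RPM in them. Same-numbered libraries of a day deviated from their group means together, so that each genotype difference is also given from a fit with the number as a block where that changes a call. The Y-linked gene *Ddx3y* was low in both P14 libraries numbered 2, with 2.14 normalized reads in control and 2.13 in dMF1/2. The other P14 libraries had 1233 to 1495. At P16 the libraries numbered 3 differed in *Ddx3y*, with 0 normalized reads in control and 1799 in dMF1/2, although no sex is given in the labels. The genotype comparisons were also fitted at P14 without both libraries numbered 1 and at P16 without both numbered 3, which leaves 2 libraries in each group. The genes called at P16 then went from 582 to 1 without the block and from 1403 to 446 with it.

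To compare the members with each other, reads were scaled over all 12 libraries and divided by the length of the longest transcript. On this scale *Fgfr1* was the most abundant member in 12 of 12 libraries. In control mice it reached 1792 ± 224 reads per kb at P14 and 2025 ± 399.5 at P16 (mean ± SD, n = 3 in this and every group below). *Fgfr2* followed with 1124 ± 60.3 and 1161 ± 66.9, and it too was above *Fgfr3*, *Fgfr4* and *Fgfrl1* in 12 of 12 libraries. The ratio of *Fgfr1* to *Fgfr2* ran from 1.16 to 2.0, so their order held in each library although the gap was small in some.

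The other members were lower. *Fgfr4* reached 328 ± 218 reads per kb in control mice at P14 and 525 ± 45.0 at P16, *Fgfr3* 222 ± 72.0 and 165 ± 41.0, and *Fgfrl1* 181 ± 29.0 and 165 ± 27.0. *Fgfr4* was above *Fgfr3* in 10 of 12 libraries per kb of transcript, and the exceptions were the P14 libraries numbered 1. Per kb of coding sequence it was above in 9 of 12, with P16 dMF1/2 library 3 a further exception. *Fgfr3* was above *Fgfrl1* in 10 of 12 libraries per kb of transcript and in 12 of 12 per kb of coding sequence. The group means of *Fgfr3* and *Fgfrl1* differed by less than the SD of *Fgfr3* in control mice, so these neighbours were not separated there.

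**Figure D1:**
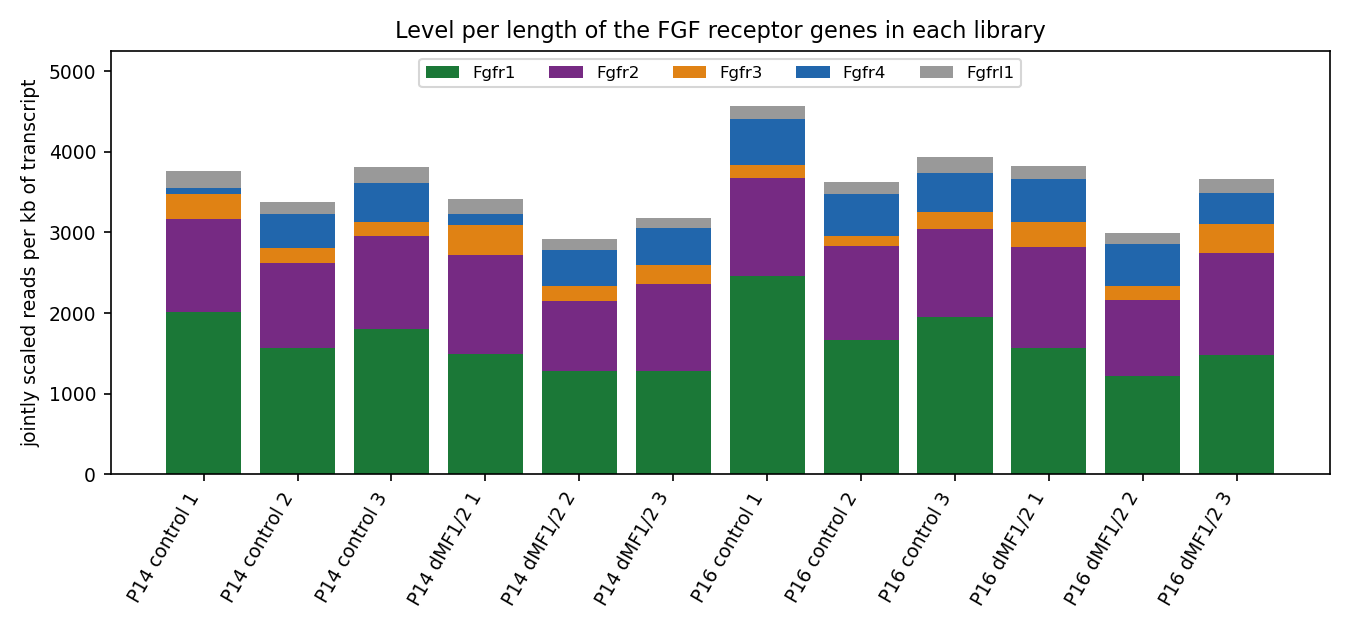
Stacked bars give, for each of the 12 libraries, the jointly scaled reads per kb of transcript (linear axis from 0) of the 5 FGF receptor genes. *Fgfr1* and *Fgfr2* fill most of every bar, and the *Fgfr4* segment is thin in both P14 libraries numbered 1.

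Among 52 genes made up of the FGF receptors and the other receptor tyrosine kinases found in both tables, *Fgfr1* ranked 4 in control mice on both days, and *Fgfr2* ranked 7 at P14 and 8 at P16. *Fgfr4* ranked 16 and 11, *Fgfr3* 18 and 22, and *Fgfrl1* 22 and 23. In P16 dMF1/2 mice *Fgfr1* ranked 6, *Fgfr2* 8, *Fgfr4* 14, *Fgfr3* 17 and *Fgfrl1* 26. Of 14853 genes with a length, 97.3% had a lower level per kb than *Fgfr1* and 62.8% a lower level than *Fgfr3* in P16 control mice. In P16 dMF1/2 mice the same shares were 96.0% and 76.7%. The ranks describe these libraries and were not tested.

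*Fgfr1*, a targeted gene and the main receptor of these cells by level, was lower in every dMF1/2 library than in every control library of its day. At P14 it gave 9981, 7745 and 8929 normalized reads in control libraries 1 to 3 and 7405, 6391 and 6398 in the dMF1/2 libraries. At P16 it gave 12517, 8512 and 9940.2 in control mice and 8015, 6226 and 7552 in dMF1/2 mice. The groups did not overlap on either day. Of all genes tested, 6.32% were lower without overlap in this way at P14 and 11.6% at P16.

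The dMF1/2 mean of *Fgfr1* was 75.8% of the control mean at P14 (6731 ± 583 against 8885 ± 1119 normalized reads) and 70.4% at P16 (7264 ± 929 against 10323 ± 2029.6). The exact two-sided permutation p was 0.1 on both days, the smallest that 3 against 3 allows. In the limma fit over all genes, the log2 fold change was -0.40 at P14 (95% interval -0.70 to -0.10, adjusted p = 0.501) and -0.50 at P16 (-0.86 to -0.13, adjusted p = 0.13), so the difference did not pass the threshold on either day. The fit with the replicate block narrowed the P16 interval to -0.68 to -0.31 and called *Fgfr1* lower (limma adjusted p = 0.0109), as did DESeq2 without the block (adjusted p = 0.0335). At P14 the limma fit with the block gave an adjusted p of 0.0691. Within same-numbered pairs the ratio of dMF1/2 to control ran from 0.717 to 0.825 at P14 and from 0.640 to 0.760 at P16, below 1 in all 6 pairs, as for 7.29% of the genes tested on both days. Without both P16 libraries numbered 3 the blocked fit gave -0.55 and an adjusted p of 0.0558 in limma, which leaves 2 pairs.

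In bulk libraries such as these, fewer cells that express a gene and less RNA of it per cell cannot be told apart.

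*Fgfr2*, the other targeted gene, gave 4939.5, 4483 and 4927 normalized reads in P14 control mice and 5190.3, 3669 and 4591 in P14 dMF1/2 mice. At P16 the values were 5356, 5118 and 4763 in control mice and 5554, 4113 and 5575 in dMF1/2 mice. The groups overlapped on both days, and in each dMF1/2 group library 2 was the lowest. The dMF1/2 mean was 93.7% of the control mean at P14 and 100.0% at P16. The log2 fold changes in limma were -0.11 (-0.43 to 0.22, adjusted p = 0.974) and -0.012 (-0.31 to 0.29, adjusted p = 0.978), and the P16 interval corresponds to between 0.81 and 1.22 times the control level. A total count over the gene thus did not separate the genotypes for *Fgfr2*, and it cannot show whether the remaining mRNA lacks the floxed exons.

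*Fgfr3* was the member without a floxed allele that differed most at P16. It gave 696, 546 and 895 normalized reads in P16 control libraries and 1357, 755 and 1572 in P16 dMF1/2 libraries. Libraries 1 and 3 of dMF1/2 were above all controls, while dMF1/2 library 2 lay below control library 3, so the groups overlapped by that library. At P14 the values were 1277, 798 and 719 in control mice and 1562, 803 and 963 in dMF1/2 mice, and library 1 was the highest in both genotypes.

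The dMF1/2 mean of *Fgfr3* was 172% of the control mean at P16 (1228 ± 423 against 713 ± 175 normalized reads) and 119% at P14 (1109 ± 399.8 against 931 ± 302). The exact permutation p was 0.2 and 0.5. In limma the log2 fold change was 0.75 at P16 (95% interval 0.10 to 1.39, adjusted p = 0.193) and 0.24 at P14 (-0.46 to 0.94, adjusted p = 0.974), and neither passed. With the replicate block *Fgfr3* was called higher at P16 (interval 0.50 to 0.99, limma adjusted p = 0.00762) but not at P14 (adjusted p = 0.360), and DESeq2 without the block also called it at P16 (adjusted p = 0.0377). The pairs went one way: the ratio of dMF1/2 to control was 1.38 to 1.95 in the 3 pairs of P16 and 1.01 to 1.34 in those of P14, above 1 in all 6, as for 8.43% of the genes tested on both days. Without both P16 libraries numbered 3 the blocked fit gave 0.71 and an adjusted p of 0.0593 in limma.

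Other values moved with *Fgfr3*. Its highest level in RPM was in the P14 libraries numbered 1 (71.0 in control, 80.9 in dMF1/2) and in P16 dMF1/2 library 3 (70.2). These 3 libraries also had the highest DP marker sums in RPM. On the jointly scaled reads the order differed, with P14 dMF1/2 library 1 (1584), P16 dMF1/2 library 3 (1542) and P16 dMF1/2 library 1 (1327) above P14 control library 1 (1294). At P16 the DP marker sum was 3712 to 6631 RPM in control mice and 7399.5 to 11416 in dMF1/2 mice, without overlap. Of the 21 DP markers, 5 were called higher and 1 lower at P16 (28.6%, against 4.32% of all genes), and 13 higher and 3 lower with the block (76.2%, against 10.4%), with a median log2 fold change of 0.86 against -0.0043 over all genes tested. Without P16 control library 1, which had the lowest sum (3712), 3 were called higher and 0 lower (14.3%, against 2.96% of all genes) at a median of 0.50. Without control library 3 or dMF1/2 library 3 the counts were also 3 and 0, where 1.37% and 1.11% of all genes were called. Without both of these libraries 0 were called, and 0.00744% of all genes. The DP marker list holds *Notum* and several *Rspo* genes, which the authors report as altered in the mutant DP. It was also chosen with earlier results of these data known. The sums and shares of this list were thus partly set by its choice. Whether the DP content of the libraries differed between genotypes was not tested. The keratinocyte sum was 25.5 to 57.6 in P16 control mice and 43.2 to 50.3 in P16 dMF1/2 mice, with 0 of 14 tested markers called in limma with or without the block, or in DESeq2. At an unadjusted p under 0.05 in limma 0 of them passed without the block and 4 with it, and their median log2 fold change was 0.46. *Krt85* was not in the table of either day, *Hoxc13* was not in that of P14, and *Krt25* and *Krt27* were not in that of P16. Endothelial markers summed to 51.9 to 106.7 RPM in P16 control and 52.1 to 68.7 in P16 dMF1/2 mice, with a median log2 fold change of -0.81. In limma 0 of 10 were called and 4 had an unadjusted p under 0.05, while 2 were called lower with the block (20.0%, against 10.4% of all genes) and 3 were called by DESeq2, which called 8.51% of all genes. Without P16 control library 1, 3 of 10 were called lower in limma (30.0%, against 2.96%) at a median of -1.19. Of the adipocyte markers 1 of 5 tested was called (20.0%, against 4.32% of all genes), *Plin1*, a lipid droplet protein gene, higher in dMF1/2 mice (2.43, limma adjusted p = 0.00604). With the block *Fabp4*, a fatty acid binding protein gene, was also called, and it was lower (-1.03, with 40.0% of the list called, against 10.4% of all genes), as it was in limma without control library 1 (40.0%, against 2.96%). DESeq2 called 2, and the median of the list was -0.19. Of the 10 dermal fibroblast markers 0 were called at P16 in limma, against 4.32% of all genes, at a median of 0.050. With the block 1 was called higher and 1 lower (20.0%, against 10.4%). Counts at an unadjusted p under 0.05 are given in this paragraph without the share of all genes at that threshold. They are not a result about any list. The part of any of these lists in the *Fgfr3* difference was not tested.

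**Figure D2:**
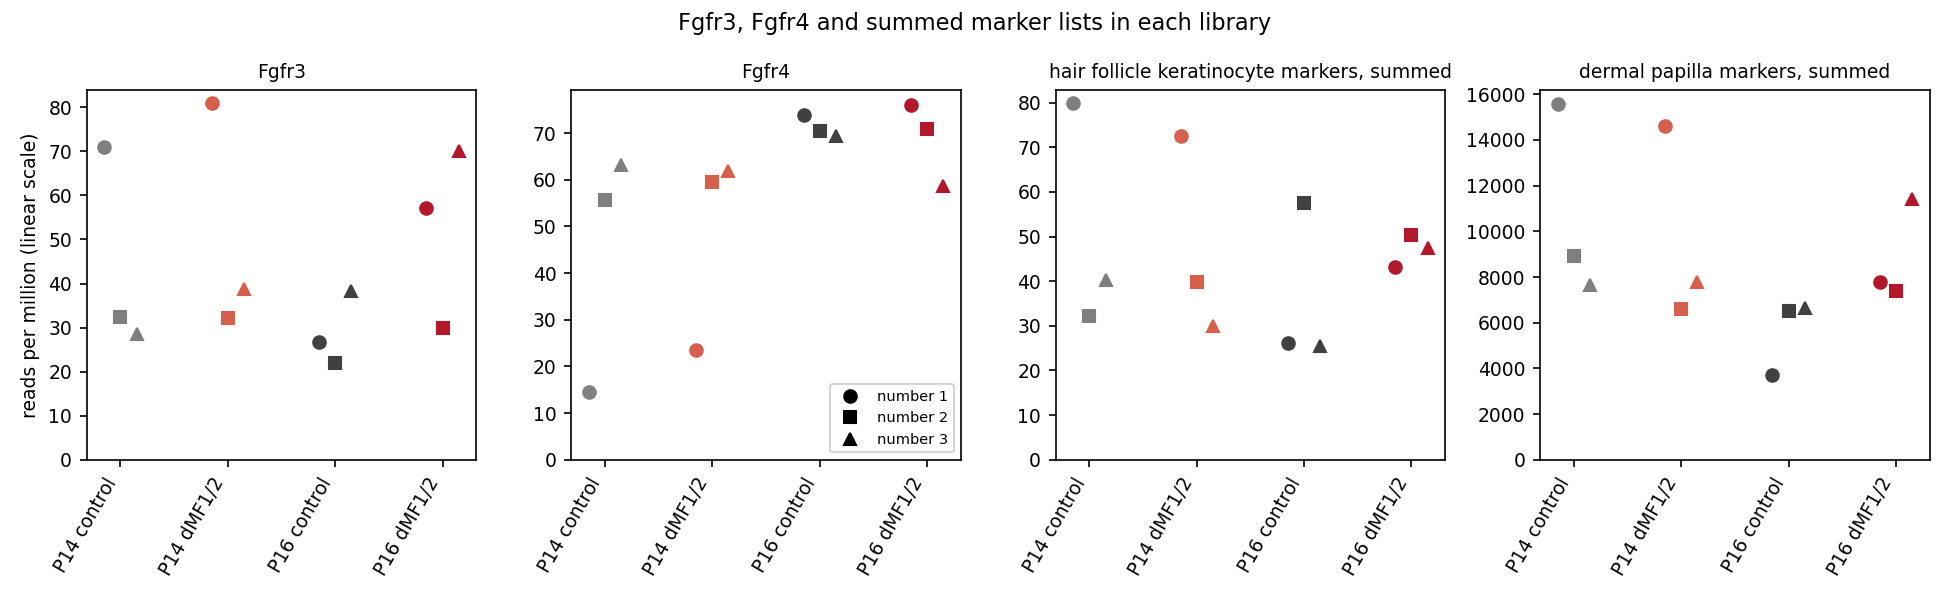
RPM (linear axes from 0, a separate scale in each panel) of *Fgfr3*, *Fgfr4*, the summed hair follicle keratinocyte markers and the summed dermal papilla markers, with 1 symbol per library and its shape giving the library number. The P14 libraries numbered 1 are the highest of their groups in both marker sums and in *Fgfr3*, at 71.0 and 80.9, and the lowest in *Fgfr4*, at 14.5 and 23.5.

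*Fgfr4*, the most abundant member after the targeted genes in most libraries, gave 1929, 1758 and 1623 normalized reads in P16 control mice and 1804, 1794 and 1315 in P16 dMF1/2 mice. The P16 groups overlapped, and the dMF1/2 mean was 92.5% of the control mean. At P14 it gave 259.9, 1372 and 1593 in control mice and 454, 1481 and 1533 in dMF1/2 mice. Library 1 was far below the others in both genotypes, and without it the P14 groups overlapped within a narrow range. The log2 fold change in limma was -0.12 at P16 (95% interval -0.44 to 0.19, adjusted p = 0.713), that is between 0.74 and 1.14 times the control level. At P14 it was 0.29 with a wide interval of -1.52 to 2.09 (adjusted p = 0.996), and 0.027 without both libraries numbered 1. A P14 difference in *Fgfr4* was thus not detectable with these libraries, whereas the P16 interval does not reach above 1.14 times control.

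*Fgfrl1* was below the other 4 members per kb of coding sequence in 10 of 12 libraries. It gave 468, 341 and 442 normalized reads in P14 control mice and 441, 321 and 292 in P14 dMF1/2 mice. At P16 it gave 368, 340.1 and 460.3 in control mice and 375, 323 and 409 in dMF1/2 mice. The groups overlapped on both days, with dMF1/2 means at 84.3% and 94.7% of control. The log2 fold changes in limma were -0.25 (-0.70 to 0.19, adjusted p = 0.900) and -0.073 (-0.40 to 0.26, adjusted p = 0.854), and the P16 interval runs from 0.76 to 1.19 times the control level.

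**Figure D3:**
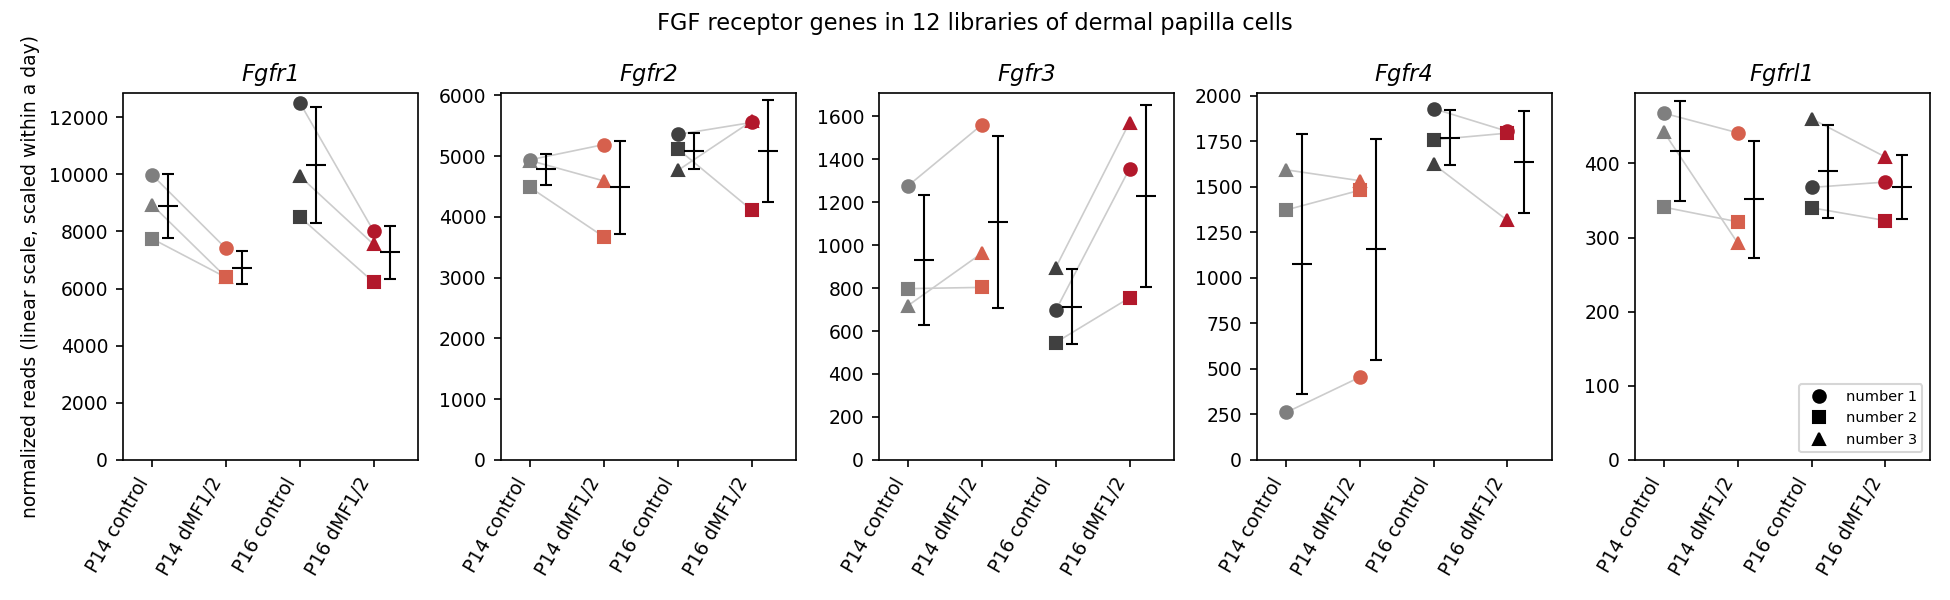
Normalized reads (linear axes from 0, scaled within a day) of the 5 FGF receptor genes, 1 panel per gene, with a symbol for each library, lines that join same-numbered libraries of a day, and bars for mean ± SD (n = 3). The *Fgfr1* lines are lower and the *Fgfr3* lines higher at their dMF1/2 end in each pair, while those of *Fgfr2* go both ways and *Fgfr4* is low in both P14 libraries numbered 1.

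Without both P14 libraries numbered 1, the P14 log2 fold changes were -0.38 for *Fgfr1*, -0.20 for *Fgfr2*, 0.22 for *Fgfr3* and -0.34 for *Fgfrl1*. Without both P16 libraries numbered 3, the P16 values were -0.13 for *Fgfr2*, -0.033 for *Fgfr4* and -0.023 for *Fgfrl1*. No member was called in these fits, with or without the block, in limma.

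Over the family, 0 of 5 members were called between genotypes on either day in limma without the block. The share called among all genes tested was 0.0525% at P14 and 4.32% at P16. At an unadjusted p under 0.05 in limma without the block the members were *Fgfr1* on both days and *Fgfr3* at P16. In limma with the block 2 of 5 members passed that threshold at P14 and 2 of 5 at P16. These counts are not set against all genes at the same threshold and are not a result about the family. With the block, 0 of 5 were called at P14 (1.68% of all genes) and 2 of 5 at P16 (10.4% of all genes), *Fgfr1* lower (5.56% of all genes were) and *Fgfr3* higher (4.87% were). DESeq2 without the block called the same 2 members at P16 and 8.51% of all genes. Leaving out P16 dMF1/2 library 2 also brought *Fgfr3* past the threshold without the block, at 1.06 and an adjusted p of 0.0483 in limma.

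**Figure D4:**
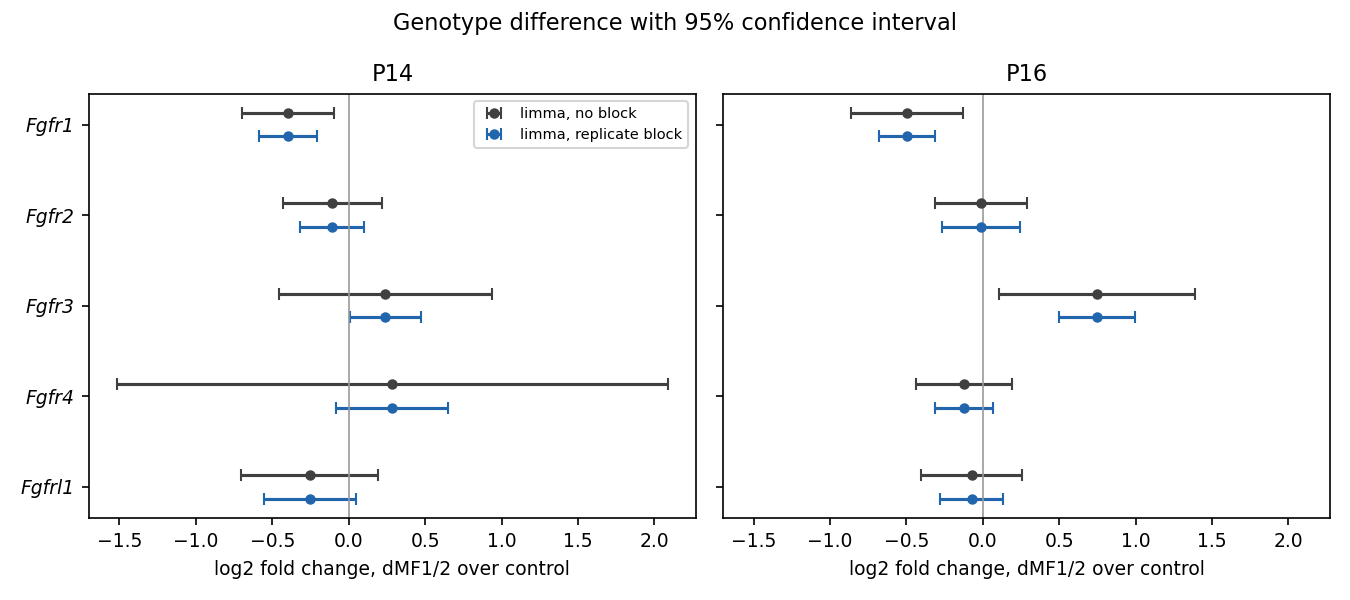
Log2 fold change of dMF1/2 over control with its 95% confidence interval for each FGF receptor gene at P14 (left) and P16 (right), from limma without (grey) and with (blue) the replicate block. At P16 the intervals of *Fgfr1* lie below 0 (-0.86 to -0.13 without the block) and those of *Fgfr3* above 0 (0.10 to 1.39), and those of the other members include 0.

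The makeup of the family was read per kb of transcript. *Fgfr1* held 49.8 ± 3.88% of the summed level of the 5 members in P16 control mice and 40.6 ± 0.315% in P16 dMF1/2 mice, and *Fgfr3* 4.11 ± 1.03% and 7.97 ± 2.05%. *Fgfr2* held 28.9 ± 2.89% and 33.0 ± 1.66%, *Fgfr4* 13.05 ± 1.14% and 14.1 ± 3.56%, and *Fgfrl1* 4.11 ± 0.791% and 4.45 ± 0.298%. The level of *Fgfr3* went from 165 ± 41.0 to 284 ± 97.5 reads per kb while that of *Fgfr1* went from 2025 ± 399.5 to 1417 ± 178. The summed level was 4041 ± 482 reads per kb in P16 control mice and 3495 ± 437 in P16 dMF1/2 mice, and 3648 ± 237 and 3175 ± 248 at P14. These are descriptions, as shares of 1 sum are not independent and no test was made of them.

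Between P14 and P16, 0 of 5 members were called in control mice, where 14.5% of all genes were called, and 0 of 5 in dMF1/2 mice, where 5.8% were. None of these 10 values had an unadjusted p under 0.05 in limma. The change in *Fgfr4* was the largest in size, at 1.05 on the log2 scale in control mice (95% interval -0.28 to 2.38, adjusted p = 0.260) and 0.64 in dMF1/2 mice (-0.70 to 1.97, adjusted p = 0.589) in limma. Without both P14 libraries numbered 1 these became 0.22 and 0.063, so their size rested on those libraries. *Fgfr3* went the other way in control mice, at -0.41 (-1.12 to 0.30, adjusted p = 0.416), and was at 0.094 in dMF1/2 mice (adjusted p = 0.903). For *Fgfr1* the changes were 0.17 in control mice and 0.061 in dMF1/2 mice, and for *Fgfr2* 0.046 and 0.14.

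The difference between these changes, the interaction of genotype and day, was not called for any member or for any other gene in limma, with or without the block, while edgeR called 0 and DESeq2 7 genes, none of them a member. At an unadjusted p under 0.05, 648 genes passed in limma. For *Fgfr3* it was 0.50 (95% interval -0.50 to 1.51, adjusted p = 1.0), and with the block its interval was 0.15 to 0.85 (unadjusted p = 0.0101, adjusted p = 0.274 in limma). The larger genotype difference of *Fgfr3* at P16 than at P14 is therefore not shown to be a difference between the days.

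The rest of the FGF pathway was followed through lists of its parts. The P16 calls named below without the block come from the fit of all 6 libraries of that day. Without both libraries numbered 3, none of these genes was called in limma, with adjusted p from 0.0649 for *Etv4* to 0.322 for *Gab2* and each fold change in the same direction. In the 6 fits that left out 1 P16 library, *Etv4*, *Etv1*, *Etv5*, *Ksr1* and *Erbb3* were called in 6, *Dusp6* in 5, *Gpc1* in 3, *Fgf10*, *Fgf11*, *Dusp7*, *Ephb1* and *Ephb6* in 2, *Myc* in 1 and *Gab2* in 0. Among FGF ligands, 12 of 22 were expressed well enough to be tested, and 2 were called at P16 in limma, both higher in dMF1/2 mice, as were 2.18% of all genes. *Fgf10*, which the DP sends to the epithelium and which the DP marker list also holds, gave 1657, 2403 and 2012 normalized reads in P16 control mice and 3119.8, 4032 and 4714 in dMF1/2 mice (log2 fold change 0.96, adjusted p = 0.0258). *Fgf11*, an intracellular family member that is not secreted, gave 192, 221 and 212 against 363, 309 and 479 (0.86, adjusted p = 0.0285). With the block *Fgf7* was also called higher (0.98) and *Fgf2* lower (-0.57) at P16, and *Fgf18*, whose product is a known signal of the follicle, was the 1 ligand called at P14, lower in dMF1/2 mice (-1.47). With the block the ligands called were thus 4 of 12 at P16 (33.3%, against 10.4% of all genes) and 1 of 12 at P14 (8.33%, against 1.68%). The median log2 fold change of the tested ligands was -0.0043 at P16, the same as over all genes to 2 digits.

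Of the proteoglycans and other co-receptors, 1 of 18 was called at P16 (5.56%, against 4.32% of all genes). *Gpc1*, the heparan sulfate proteoglycan glypican 1, gave 3920.1, 2194 and 2504 normalized reads in control mice and 1368, 747 and 1181 in dMF1/2 mice, without overlap (log2 fold change -1.39, limma adjusted p = 0.0286). With the block 4 were called higher and 4 lower (44.4%, against 10.4% of all genes), among them *Sdc4* (-0.95) and *Gpc6* (0.59). Of the receptor-proximal adaptors 1 of 18 was called at P16 with and without the block (5.56%, against 4.32% of all genes without it and 10.4% with it), the docking protein gene *Gab2* (-0.48, limma adjusted p = 0.0459). Of the RAS-RAF-MEK-ERK core 1 of 17 was called at P16 (5.88%, against 4.32%), the scaffold gene *Ksr1* (0.96, limma adjusted p = 0.00604), and with the block also *Mapk3*, which encodes ERK1, lower by a small amount (-0.31; 11.8%, against 10.4%). Apart from the co-receptors and the adaptors with the block, these P16 shares lie near those of all genes. At P14 with the block 1 of 17 core genes was called, higher in dMF1/2 mice (5.88%, against 1.68% of all genes).

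The ERK-induced and feedback genes were the pathway list with the largest share called. At P16, 6 of 24 were called in limma, all lower in dMF1/2 mice (25.0%, against 2.14% of all genes called lower), and their median log2 fold change was -0.39. With 1 P16 library left out, 3 to 8 of the 24 were called, all lower (12.5 to 33.3%, against 1.11 to 5.08% of all genes called in either direction). Without both libraries numbered 3, 0 were called, or 7 with the block (29.2%, against 3.32% of all genes), at a median of -0.35. *Etv4* gave 278, 197 and 217 normalized reads in control mice and 42.1, 41.1 and 43.4 in dMF1/2 mice (log2 fold change -2.41, adjusted p = 0.00154). *Etv1* followed at -1.69 (adjusted p = 0.00329) and *Etv5* at -0.99 (adjusted p = 0.00841). These encode the ETS transcription factors that are induced by FGF signalling through ERK. The other genes called were *Dusp6* (-0.996), the phosphatase that inactivates ERK, *Dusp7* (-1.01) and *Myc* (-0.86).

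At P14, 0 of 24 genes of this list were called in limma without the block, at a median of -0.37, where 0.0525% of all genes were called. Of the list 9 genes had an unadjusted p under 0.05, against 976 of 13334 genes tested, and DESeq2 called 4, among 207 genes in all. With the block 5 were called, all lower in dMF1/2 mice (20.8%, against 1.02% of all genes called lower). *Etv5* gave 1288, 929 and 940.3 normalized reads in P14 control mice and 488, 437 and 392 in dMF1/2 mice, without overlap (log2 fold change -1.25, limma adjusted p = 0.00176 with the block). The others were *Etv1* (-1.24), *Spry4* (-1.19), *Dusp4* (-0.97) and *Spred2* (-0.61), of which *Spry4* and *Spred2* encode inhibitors of the pathway. Without both P14 libraries numbered 1 the block called 2 of 24, *Etv5* (-1.17) and *Spry4* (-1.42), which is 8.33% against 0.218% of all genes. The fit without the block then called 1, *Spry4* (4.17%, against 0.0676%). At P16 the block raised the count to 12 of 24, again all lower (50.0%, against 5.56% of all genes called lower). The log2 fold change of *Etv4* at P16 was thus larger in size than that of any FGF receptor gene, whose values all lay between -0.50 and 0.75.

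Other receptor tyrosine kinases were tested for 43 of 51 genes at P16, and 3 were called in limma (6.98%, against 4.32% of all genes). *Ephb1*, an ephrin receptor, gave 91.7, 361 and 317 normalized reads in P16 control mice and 983, 1151 and 1447 in dMF1/2 mice (log2 fold change 2.42, adjusted p = 0.0282). *Ephb6*, a related receptor without kinase activity, was also higher (0.87, adjusted p = 0.0215). *Erbb3*, which binds neuregulin, was lower at 127 ± 21.9 normalized reads in control mice and 41.1 ± 8.54 in dMF1/2 mice (-1.61, adjusted p = 0.00841). With the block 7 were called higher and 4 lower (25.6%, against 10.4%), and at P14 none of 40 was called with or without the block in limma. At an unadjusted p under 0.05, 2 of the 40 passed at P14 in limma without the block and 11 with it, and DESeq2 called 1. The share of all genes at that threshold with the block is not given here, so these counts are not a result about the list. The median of the list at P16 was 0.010.

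Finally, genes whose level ran most alike with each member were sought among 10238 genes with a mean of at least 100 reads, by Pearson's r of log2 levels over the 12 libraries. The 12 libraries share 4 groups, so these values describe the libraries and carry no p. *Fgfr1* ran most alike with *Cdc14a* (r = 0.969, Spearman's rho = 0.965), *Adcy6* (0.962 and 0.930) and *Gpc1* (0.952 and 0.909), and most opposite to *Aff3* (-0.976 and -0.923) and *Lonrf2* (-0.937 and -0.930). *Fgfr3* ran most alike with *Baz2a* (0.953 and 0.909) and *Tnk2* (0.947 and 0.909) and most opposite to *Dpt* (-0.954 and -0.986), the gene of the dermal matrix protein dermatopontin. *Dpt* is also in the dermal fibroblast marker list. *Fgfr2* and *Fgfrl1* had looser companions at the positive end, with the highest r at 0.911 for *Lipo1* and 0.889 for *Map3k11*. At the negative end *Fgfr2* had -0.889 for *Tmem43* (rho -0.587) and *Fgfrl1* had -0.952 for *Slc39a11* (rho -0.951). For *Fgfr4* the highest r was 0.990 for *Ccbe1* and 0.986 for *Gramd2*, and without both P14 libraries numbered 1 these were 0.901 and 0.742. The lowest, -0.967 for *Mxra8*, became -0.30, so it rested on those libraries.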

How the data were processed

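The authors depleted ribosomal RNA, made stranded libraries and sequenced single-end reads, which, per the labels and the study's methods, were trimmed with Trimmomatic, mapped to mm10 with TopHat2, counted per Ensembl gene (GRCm38.p4) with HTSeq and normalized with DESeq2. The deposited signal values are reads divided by DESeq2 size factors, in 1 table per day, and all of them (100.0%) were whole multiples of 1 read within a tolerance of 1e-06, so whole reads were recovered. The deposited tables also hold fold changes and p-values of the authors, which were not used.

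Tests used limma 3.58.1 in R 4.3.3 on log2(normalized reads + 1), with a mean-variance trend, over all genes with a mean of at least 10, Benjamini-Hochberg adjustment and a threshold of 0.05. A fold change is on that scale. The fits were tested on simulated reads. Genotypes were compared within a day. Changes between days and the interaction came from 1 fit of 12 libraries, rescaled by median of ratios over 14986 shared genes. The tables held normalized reads, for which limma had been planned. Fits without doubted libraries were added after seeing the data. As alternatives, edgeR 4.0.16 and DESeq2 1.42.0 were run on the recovered reads.

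Same-numbered libraries of a day came from different mice, but their deviations from the group means correlated across genes, at 0.586, 0.389 and 0.304 at P14 and 0.256, 0.293 and 0.311 at P16, so the number was used as a block beside the main fit. Across days the correlations were -0.162 to 0.208 and the numbers do not pair.

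The members and gene lists were chosen with earlier results of these data known. Named genes were the 5 members, up to 6 called genes of a list and day by adjusted p, the 3 highest of a marker list, and the 3 genes most like and most unlike each member, of which some are shown. Genes named with the block, and *Ddx3y*, *Epcam*, *Hoxc13*, *Notum*, the *Rspo* genes and the keratin genes, were chosen after their values were seen. Lengths, positions and sequences came from GENCODE transcripts of GRCm38, the longest with a RefSeq match for each gene. Each library is 1 mouse, with 19302358 to 29860750 counted reads, so the spread between mice and not counting error limits the precision.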

Additional observations from a re-analysis of the deposited data

How the results depend on the processing

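All values are log2 fold changes or counts of genes called, and fits that leave out a library are limma fits in which the remaining libraries share 1 estimate of the spread. The members called were *Fgfr1* and *Fgfr3* at P16, with DESeq2 (-0.51 and 0.78), limma with the replicate block (-0.50 and 0.75) and edgeR with the replicate block (-0.50 and 0.75), and *Fgfr3* also without dMF1/2 library 2. The replicate block changed no other call of a member. At P14, 7 genes were called, against 207 with DESeq2, 224 with the limma block, 245 with the edgeR block, 11 in 1 fit of 12 libraries, 29 with the block and without both libraries numbered 1, and 0 to 18 with 1 library left out. At P16, 582 were called, against 1123 with DESeq2, 1403 and 1439 with the limma and edgeR blocks, 1 without both libraries numbered 3, and 149 to 684 with 1 library left out, the counts without control library 3 (184), dMF1/2 library 2 (306) and dMF1/2 library 3 (149) being the low ones. Alternatives chosen after seeing the data were those without both same-numbered libraries. Between days, 1951 genes were called in control mice, against 403 with library sum scaling, 806 from only the 6 libraries compared, 951 without both P14 libraries numbered 1, 693 to 1945 with 1 library left out, and, upward, 2243 with the limma block and 2580 with DESeq2. In dMF1/2 mice 778 were called, against 1341 with DESeq2, 104 with library sum scaling, 322 from only 6 libraries, and 257 to 678 with 1 library left out. The interaction gave 0, against 7 with DESeq2, 2 without both P14 libraries numbered 1, and 0 to 2 with 1 library left out. Signs turned only for values that were not called. With library sum scaling *Fgfr2* became 0.048 between genotypes at P16 and -0.062 between days in control mice. With 1 library left out the genotype difference ran, at P14, from -0.22 to 0.031 for *Fgfr2*, -0.035 to 0.49 for *Fgfr3* and -0.55 to 0.86 for *Fgfr4*, and at P16 from -0.63 to -0.35 for *Fgfr1*, -0.086 to 0.13 for *Fgfr2*, 0.53 to 1.06 for *Fgfr3*, -0.20 to 0.027 for *Fgfr4* and -0.16 to 0.054 for *Fgfrl1*. The change between days in dMF1/2 mice then ran from -0.012 to 0.17 for *Fgfr1*, -0.0016 to 0.28 for *Fgfr2*, -0.12 to 0.41 for *Fgfr3* and -0.081 to 0.22 for *Fgfrl1*, and the interaction from -0.24 to 0.044 for *Fgfr1*, -0.048 to 0.23 for *Fgfr2* and -0.99 to 0.42 for *Fgfr4*. The share of *Fgfr1* in the summed level in P14 control, P14 dMF1/2, P16 control and P16 dMF1/2 mice became 54.5, 48.1, 55.6 and 46.1% per coding length, and 55.1, 48.7, 56.2 and 46.7% with no division by length. The cause of these shifts was not tested.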
